A study of Mus musculus with 32 samples.

Results

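Embryoid bodies (EBs), floating aggregates of differentiating mouse embryonic stem cells, were compared at day 6 and at day 4 of culture, the interval in which genes of the germ layers came on. The 4 libraries of EB day 6 and the 4 of EB day 4 were taken from the 32 libraries of the series by their labelled stage. All derived from the J1 line, of strain 129S4/SvJae, and at each stage 1 library had received 100 nM bisphenol A (BPA), 1 had received 100 nM bisphenol F (BPF), 1 had received 100 nM bisphenol S (BPS) and 1 the solvent dimethyl sulfoxide (DMSO). To set day 6 in context, the 4 libraries of EB day 9 were used, and the 4 of EBs at day 8 that had spent 4 days in retinoic acid (RA EBs), all from J1 cells in the same 4 treatments. The labels name no separate cultures and no repeat of a treatment within a stage. All p-values therefore use the spread left in a model of all 32 libraries, pooled over stages. That spread includes differences between treatments that vary by stage and holds no repeat of a culture.

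In the embryo the pluripotent epiblast forms the primitive streak, where nodal, Wnt and BMP signals act and from which mesoderm and definitive endoderm leave. The node at the front of the streak gives rise to the notochord. Cells that do not enter the streak form ectoderm, whose neural plate is divided along the head-to-tail axis by signalling centres such as the isthmus between midbrain and hindbrain. EBs hold many of these states at once, without the spatial order of the embryo.

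Targets and secreted inhibitors of Wnt signalling were among the genes that rose, and the promoters of 4 of them are shown because they hold the letters preferred by TCF/LEF factors, the nuclear effectors of Wnt. The 250 bases before the most upstream start listed for a gene were read on both strands for CTTTGA, and matches are in capitals. Sequences are from RefSeq for GRCm38.p6, written 5′ to 3′ towards the gene: Dkk1 (chr19:30549497-30549746, minus strand), Frzb (chr2:80447397-80447646, minus strand), Sp5 (chr2:70474673-70474922, plus strand) and T (chr17:8434173-8434422, plus strand).
Dkk1: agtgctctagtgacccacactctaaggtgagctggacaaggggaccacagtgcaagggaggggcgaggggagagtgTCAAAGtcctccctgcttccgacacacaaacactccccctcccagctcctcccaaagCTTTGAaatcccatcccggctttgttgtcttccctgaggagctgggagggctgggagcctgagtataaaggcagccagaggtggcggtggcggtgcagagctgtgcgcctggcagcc
Frzb: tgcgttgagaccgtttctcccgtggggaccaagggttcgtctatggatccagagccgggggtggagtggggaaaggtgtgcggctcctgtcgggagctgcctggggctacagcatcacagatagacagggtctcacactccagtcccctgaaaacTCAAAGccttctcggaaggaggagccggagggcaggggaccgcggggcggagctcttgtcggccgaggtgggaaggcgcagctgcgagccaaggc
Sp5: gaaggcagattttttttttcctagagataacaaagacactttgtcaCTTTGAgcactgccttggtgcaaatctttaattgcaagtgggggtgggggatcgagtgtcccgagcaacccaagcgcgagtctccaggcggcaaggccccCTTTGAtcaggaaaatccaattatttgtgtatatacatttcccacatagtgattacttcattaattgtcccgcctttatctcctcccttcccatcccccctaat
T: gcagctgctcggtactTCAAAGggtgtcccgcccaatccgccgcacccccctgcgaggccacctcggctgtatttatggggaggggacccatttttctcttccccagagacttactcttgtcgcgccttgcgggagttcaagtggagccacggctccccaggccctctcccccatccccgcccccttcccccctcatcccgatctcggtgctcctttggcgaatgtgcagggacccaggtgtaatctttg

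The matches begin 174 and 117 bases before the start in Dkk1, 95 bases before it in Frzb, 204 and 104 bases in Sp5 and 234 bases in T. Promoters were available for 24 of the 35 called members of the lists of Wnt inhibitors and targets, primitive streak and nodal pathway, and these 4 are the ones with a match, or 16.7%. The same letters stand in 10.8% of the 12268 promoters of genes tested, in 9.78% of those of genes called higher at EB day 6 and in 14.1% of all 27025 promoters. The FOXH1 letters AATCCACA and the T-box letters TCACACCT were found in 0 of the 24, and in 0.424% and 0.717% of the promoters of genes tested. A match describes letters in this window and shows no binding.

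Of 15632 genes tested, 1640 were called higher at EB day 6 (10.5%) and 1337 lower (8.55%). Calls needed a log2 change of at least 1 in either direction and, in edgeR's quasi-likelihood test, a p under 0.05 after Benjamini-Hochberg adjustment over all genes tested, and every adjusted p below is from that test. All day 6 libraries stood above all day 4 libraries for 4150 genes (26.5%) and below them for 3903 genes (25.0%). Total expected counts, the estimated reads assigned to genes, were 10781506 to 10940376 per library at EB day 6 and 10202208 to 10344965 at EB day 4. Levels are in FPKM (fragments scaled by transcript length and library size) and are given for BPA, BPF, BPS and DMSO in that order. Changes are edgeR's log2 of EB day 6 over EB day 4 ± SE. In bulk libraries, more cells of a type and more RNA per cell cannot be told apart.

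**Figure D1:**
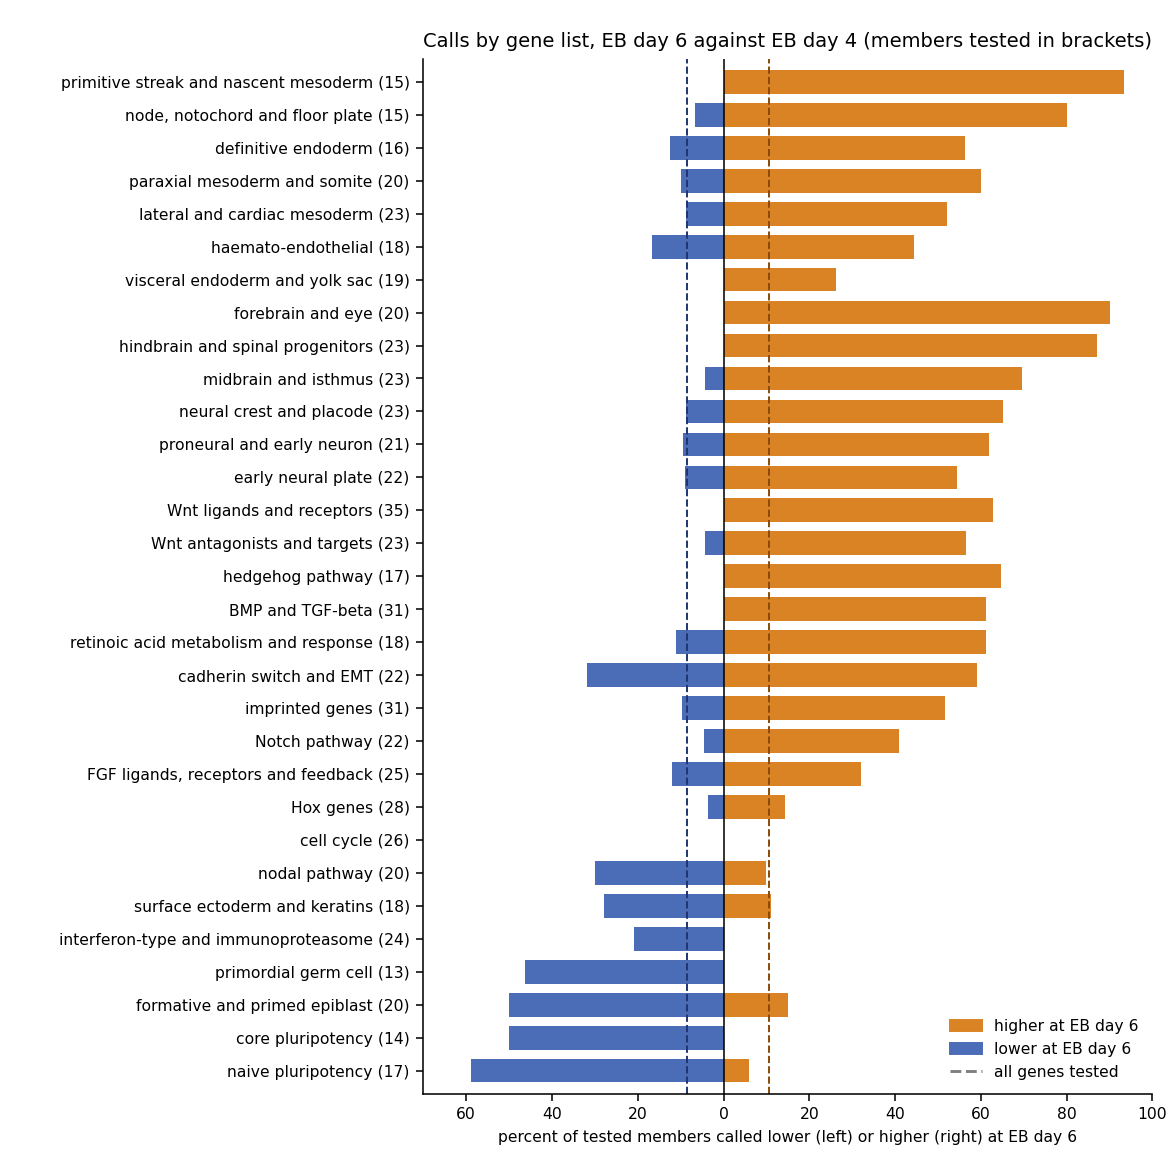
Share of the tested members of each gene list called higher (right, orange) or lower (left, blue) at EB day 6 against EB day 4, in percent. Dashed lines mark all genes tested (10.5% higher, 8.55% lower); the primitive streak, forebrain and node lists reach 93.3%, 90% and 80% higher, and 58.8% of the naive pluripotency list is lower.

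The DMSO library of day 6 stood apart from the 3 bisphenol libraries of its stage, which bears on many genes below. Its root mean square log2 difference from the mean of the other 3 was 0.266 over 10017 genes, against 0.139 to 0.185 for the bisphenol libraries of day 6 and 0.145 to 0.189 for the 4 libraries of day 4. In it 114 genes differed by more than a log2 of 1, against 0 in BPA, 22 in BPF and 20 in BPS. With 1 library of each treatment, the solvent and that library cannot be told apart, so the values of all 8 libraries are given for the main genes.

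Most tested genes of the primitive streak list were called higher at EB day 6. The filter on low counts took 1 CPM in any 4 of the 32 libraries. A member seen only at day 6 could therefore pass, while members low throughout were left out. The shares called higher, here and in the lists below, depend in part on that filter. Of the 20 members of the primitive streak and nascent mesoderm list, 15 passed the filter on low counts, of which 14 were called higher and 0 lower (median log2 change 3.44, against 0.00 over all genes tested). T, the T-box factor that marks the streak and later the notochord (Entrez 20997, in GRCm38.p6 at chromosome 17, 8434423 to 8442496), stood at 46.4, 55.8, 60.5 and 10.3 FPKM at EB day 6, against 0.24, 0, 0.19 and 0.05 FPKM at EB day 4. The stages did not overlap, and DMSO was the lowest day 6 library (log2 change 7.94 ± 0.38, adjusted p = 1.7e-14). Eomes, a T-box factor of the early streak and endoderm, had 7.49, 12.6, 12.8 and 3.51 FPKM at EB day 6, against 3.24, 2.8, 2.49 and 3.2 FPKM at EB day 4. It rose over all treatments (1.58 ± 0.34, adjusted p = 0.00031), with the smallest gap between the days in DMSO.

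The streak genes did not all share that pattern. Sp5, a direct target of Wnt signalling, had 19.7, 21.1, 18.2 and 20 FPKM at EB day 6, against 0.51, 0.51, 0.6 and 0.47 FPKM at EB day 4 (5.11 ± 0.23, adjusted p = 4.4e-16), with no library apart. The ligand gene Wnt3a had 2.51, 2.05, 2.37 and 2.91 FPKM at EB day 6, and 1 count in all at EB day 4, a ratio of counts of 275 with a 95% counting interval of 49 to 10900. Such ratios are corrected for library size, and their intervals and floors cover counting error only, not how reads were divided between genes. Gsc, an organiser homeobox gene, rose by 2.14 ± 0.25 (adjusted p = 6.5e-08), with 2.86 FPKM in DMSO and 6.65 to 8.32 in the bisphenol libraries. Tbx6, of presomitic mesoderm, was not called (0.36 ± 0.38). Mesp1, of the earliest mesoderm, failed the filter on low counts and was listed at 1.52, 4.32, 2.31 and 0.09 FPKM at EB day 6 and at 0 in all day 4 libraries, and the streak factor gene Mixl1 stayed below 1 FPKM in all 8. Without the day 6 DMSO library the list still had 14 higher and 0 lower.

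The nodal pathway list had 2 members higher and 6 lower of 20 tested (median -0.27). Cer1, a secreted inhibitor of nodal made by anterior endoderm, stood at 62.5, 114, 99.6 and 10.2 FPKM at EB day 6, against 0.06, 0, 0.01 and 0 FPKM at EB day 4. That is 5418 counts against 1, a ratio of 4970 with a 95% counting interval of 892 to 196000. Cfc1, a nodal co-receptor of the node and lateral mesoderm, had 9.14, 17.8, 13.6 and 1.45 FPKM at EB day 6, against 1.14, 1.33, 0.66 and 0.29 FPKM at EB day 4 (3.30 ± 0.28). DMSO was again the lowest of day 6, and the days did not overlap in Cer1 or Cfc1. Lefty1, a feedback inhibitor of nodal, had 11.3, 12.5, 9.66 and 9.34 FPKM at EB day 6, against 33.4, 32.3, 27.7 and 43.1 FPKM at EB day 4 (-1.73 ± 0.18, adjusted p = 7.1e-09). Gdf3, a nodal-related ligand of pluripotent cells, fell by 2.23 on the log2 scale (SE 0.11) in all treatments.

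Definitive endoderm genes rose in 9 of 16 tested members and fell in 2 (median 1.71). Foxa2, a forkhead factor of endoderm, node and floor plate (Entrez 15376, chromosome 2, 148042877 to 148046969), had 38.8, 45.1, 44.5 and 12.5 FPKM at EB day 6, against 0.19, 0.19, 0.33 and 0.43 FPKM at EB day 4 (6.66 ± 0.37, adjusted p = 2.4e-14). Sox17, which marks definitive endoderm, had 4.27, 7.9, 7.16 and 1.47 FPKM, against 0.07, 0.07, 0.03 and 0.07 FPKM (5.96 ± 0.48). The chemokine receptor gene Cxcr4, also of that lineage, had 11.5, 19.3, 19.5 and 14.1 FPKM, against 0.32, 0.48, 0.37 and 0.38 FPKM (5.16 ± 0.24), and here DMSO lay within the range of the others. Hhex, of anterior endoderm, had 6.16, 12.6, 12.1 and 2.22 FPKM at EB day 6, against 2.22, 2.13, 2.14 and 2.62 FPKM at EB day 4 (1.66 ± 0.36, adjusted p = 0.00038). The DMSO library of day 6 lay within the range of day 4. DMSO was the lowest day 6 library for 10 of the 16 members, against 26.8% of all genes tested. It was also the highest day 4 library for 8 of them, against 28.9% of all genes tested.

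Of the visceral endoderm list, whose genes mark the extraembryonic layer around the epiblast, 5 of 19 were called higher and 0 lower (median 1.22). Spink1 (3.55 ± 0.48), Ttr (2.78 ± 0.60) and Rbp4 (2.35 ± 0.56), all of secreted proteins, rose. The fetoprotein gene Afp had 3.98, 1.97, 2.97 and 4.84 FPKM at EB day 6, against 0.19, 0.28, 0.28 and 0.61 FPKM at EB day 4. Its call (3.40 ± 1.31, adjusted p = 0.03) was lost without any 1 of 4 libraries: BPF or BPS of day 4 (adjusted p = 0.104 and 0.0718) and DMSO or BPA of day 6 (0.087 and 0.0751). Without single libraries, 3 to 9 members of the list were called higher and 0 to 1 lower: 3 were higher without BPF or BPS of day 4 or DMSO of day 6, and 9 without BPF of day 6. The basement membrane list had 8 of 14 higher and 0 lower, led in level by the collagen gene Col4a2 (30.6, 30.4, 30 and 40.3 FPKM at EB day 6, against 6.31, 7.14, 7.54 and 8.84 FPKM at EB day 4).

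**Figure D2:**
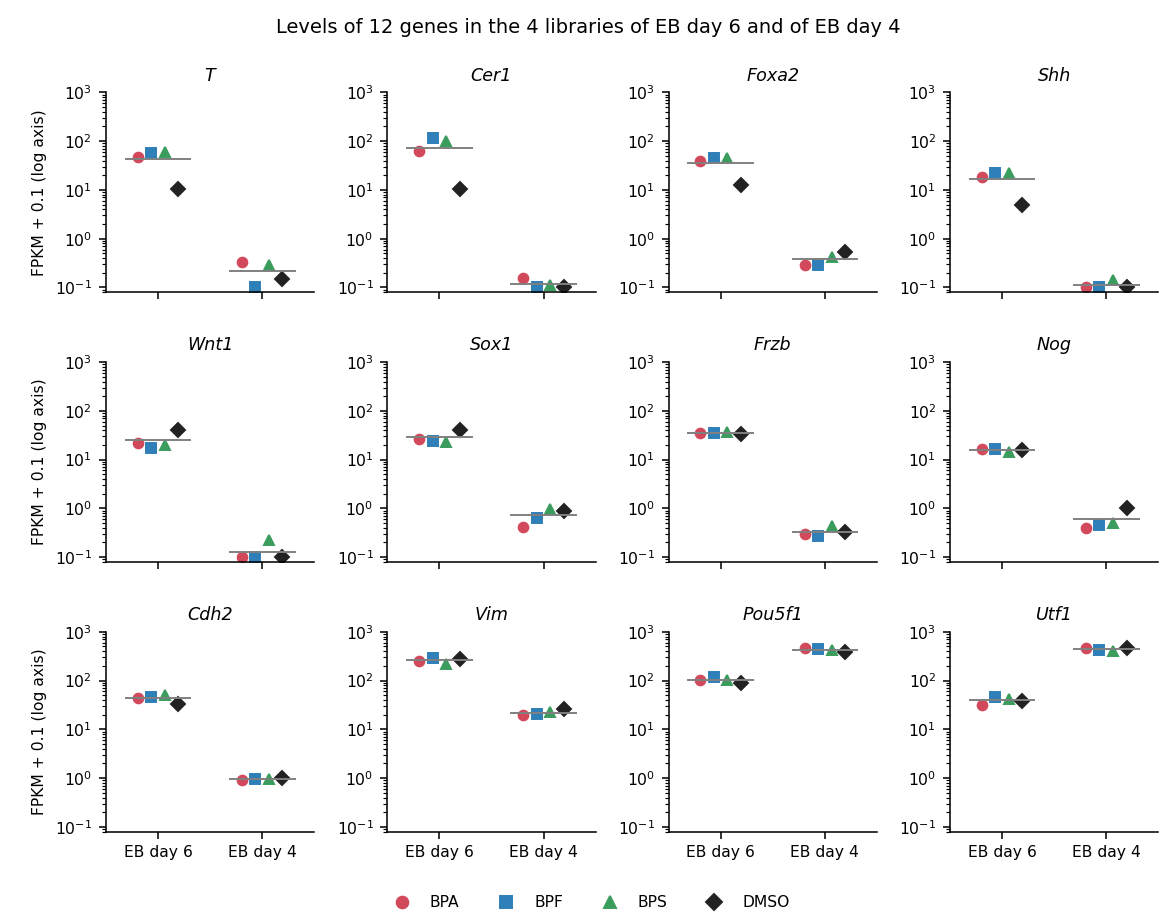
FPKM + 0.1 (log axis) of 12 genes in each library of EB day 6 (left in each panel) and EB day 4 (right); symbols and colours mark the treatment, grey lines the mean of 4 libraries. For T, Cer1, Foxa2 and Shh the day 6 DMSO library lies below the others (10.3, 10.2, 12.5 and 4.74 FPKM), for Wnt1 and Sox1 above them (40.6 and 40 FPKM).

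Genes of the node, notochord and floor plate made up the list with the highest median. Of 15 tested members 12 were called higher and 1 lower (median 4.38). Shh, the morphogen that notochord and floor plate secrete, had 18.1, 22.4, 22.3 and 4.74 FPKM at EB day 6, against 0, 0, 0.04 and 0 FPKM at EB day 4. The ratio of counts was 1850, with a 95% counting interval of 331 to 73000. Nog, an inhibitor of BMP made by node and notochord, had 16.4, 16.1, 14.1 and 15.8 FPKM, against 0.3, 0.35, 0.4 and 0.92 FPKM (4.81 ± 0.21, adjusted p = 2.5e-16), with no day 6 library apart. Nkx6-1, a target of Shh in the ventral neural tube, had 13.1, 8.26, 12.2 and 11.6 FPKM, against 0.05, 0, 0.11 and 0.05 FPKM (6.75 ± 0.37). The member that fell, Foxj1, a factor of motile cilia (named after its values were seen), had 5.36, 7.57, 6.74 and 2.52 FPKM at EB day 6, against 13.5, 14.8, 13.6 and 14.7 FPKM at EB day 4 (-1.47 ± 0.22).

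Hedgehog pathway genes rose in 11 of 17 tested members, with 0 lower (median 1.39). Ptch1, receptor and target of the pathway, had 63.3, 70, 73.7 and 26.7 FPKM at EB day 6, against 14.2, 16.5, 15 and 19.2 FPKM at EB day 4 (1.74 ± 0.17, adjusted p = 2.1e-09). Gli1, its transcriptional target and effector, had 7.82, 6.89, 7.52 and 2.81 FPKM, against 0.58, 0.5, 0.63 and 0.88 FPKM (3.16 ± 0.25). The floor plate factor gene Nkx2-2 rose by 3.83 ± 0.49. In DMSO, Ptch1 and Gli1 were the highest of day 4 and the lowest of day 6.

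Mesoderm lists beyond the streak rose in part and at low levels. Paraxial mesoderm had 12 higher and 2 lower of 20 tested members, lateral and cardiac mesoderm 12 and 2 of 23, and the haemato-endothelial list 8 and 3 of 18 (medians 1.79, 1.89 and 1.26). With limma on log2(FPKM + 1), a scale that shrinks changes of low genes, 8, 6 and 2 members were called higher. Foxc2, of somites and vessels, had 1.86, 4.5, 4.02 and 0.4 FPKM at EB day 6 and 3 counts in all at EB day 4, a ratio of 98.8 (33.5 to 482). Isl1, of cardiac progenitors and motor neurons, had 0.97, 2.49, 3.36 and 0.29 FPKM at EB day 6, against 0, 0, 0.08 and 0 FPKM at EB day 4, a ratio of 89.9 (24.6 to 748). Kdr, the VEGF receptor of endothelial precursors, had 1.04, 1.67, 2.01 and 1.12 FPKM, against 0.05, 0.02, 0.02 and 0.05 FPKM (4.82 ± 0.76, adjusted p = 5.3e-06). Pdgfra, a receptor of early mesoderm, rose by 3.56 ± 0.32 to 2.34, 3.66, 3.82 and 2.31 FPKM. Cdh5, an endothelial cadherin, stayed under 0.5 FPKM, with 3 counts at EB day 4 and a ratio of 13.5 (4.31 to 67.8). Its call (adjusted p = 0.047) was lost on leaving out any 1 of the 8 libraries except BPA of day 6 (adjusted p = 0.0548 to 0.122).

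Pax3 and Pax7, which the paraxial list shares with dorsal neural tube and neural crest, moved with the neural genes. Pax3 had 4.83, 3.36, 4.62 and 6.2 FPKM at EB day 6 and 2 counts at EB day 4, a ratio of 349 (96.2 to 2880), with the highest value in DMSO. Pax7 had 1.91, 1.27, 1.67 and 3.24 FPKM, against 0.07, 0.09, 0.04 and 0.02 FPKM (4.64 ± 0.51).

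Genes of all 3 brain regions listed were called higher at EB day 6. The forebrain and eye list had 18 higher and 0 lower of 20 tested members (median 2.63), the midbrain and isthmus list 16 and 1 of 23 (median 3.33), and the hindbrain and spinal progenitor list 20 and 0 of 23 (median 2.91). Wnt1, the ligand of midbrain and roof plate (Entrez 22408, chromosome 15, 98789857 to 98793830), had 22.2, 16.9, 20.1 and 40.6 FPKM at EB day 6, against 0, 0, 0.12 and 0 FPKM at EB day 4. The ratio of counts was 788, with a 95% counting interval of 269 to 3820. En1, its homeobox partner at the isthmus, had 27.9, 21.2, 26.1 and 40.7 FPKM, against 0.08, 0.19, 0.45 and 0.15 FPKM (6.80 ± 0.42, adjusted p = 2.6e-13). Pax2, of isthmus and optic stalk, had 5.13, 3.84, 4.34 and 11.5 FPKM, against 0.03, 0.1, 0.06 and 0.06 FPKM (5.97 ± 0.37). DMSO was the highest day 6 library in all 3.

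The forebrain genes were lower in level, and limma on log2(FPKM + 1), a scale that shrinks changes of low genes, called 7 of the 20 higher (median 0.85). Fezf2, of the anterior forebrain, had 1.07, 0.67, 1.08 and 5.06 FPKM at EB day 6 and 0 counts at EB day 4, and was at least 60.3-fold higher against a floor of 3 counts over the group. Emx2, of dorsal telencephalon, had 0.88, 0.98, 1.03 and 2.74 FPKM at EB day 6, a ratio of 146 (25.8 to 5800) against 1 count at EB day 4. Six3, of anterior neural plate and eye field, had 5.8, 8.2, 8.67 and 3.41 FPKM, against 0.5, 1.07, 1.18 and 1.17 FPKM (2.70 ± 0.31), and here DMSO was the lowest of day 6.

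Of the early neural plate list, 12 of 22 were called higher and 2 lower (median 2.29). Sox1, the earliest exclusively neural Sox gene, had 26.8, 24.2, 23.2 and 40 FPKM at EB day 6, against 0.31, 0.55, 0.86 and 0.79 FPKM at EB day 4 (5.40 ± 0.26, adjusted p = 2.1e-15). Foxb1, a forkhead factor of neural plate and midbrain, had 18.8, 13.8, 14.7 and 16.6 FPKM, against 0.03, 0.03, 0 and 0.07 FPKM (7.95 ± 0.34), with no library apart. Pax6, of forebrain, eye and spinal progenitors, had 1.35, 1.2, 1.53 and 4.09 FPKM, against 0.4, 0.36, 0.51 and 0.46 FPKM (2.06 ± 0.43, adjusted p = 0.00018). Sox2, shared by pluripotent and neural cells, had 82.2, 70.6, 74.4 and 85.7 FPKM at EB day 6, against 86.9, 84.5, 82.2 and 83.8 FPKM at EB day 4 and was not called (-0.16 ± 0.10, adjusted p = 0.19). Proneural and early neuron genes rose in 13 of 21 and fell in 2 (median 1.81), but with limma on log2(FPKM + 1) 3 of 21 were called higher and 1 lower (median 0.41). Of the neural crest and placode list 15 of 23 were higher and 2 lower. Sox9, an early crest factor, rose by 4.61 ± 0.19, whereas Foxd3, which both premigratory crest and pluripotent cells express, fell by 2.26 on the log2 scale (SE 0.26).

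Hox genes, which are expressed in order along the head-to-tail axis, mostly stayed low. Of 28 tested, 4 were called higher and 1 lower (median -0.05). Hoxb1 was at 0.13 to 0.4 FPKM at EB day 6, a ratio of 20.2 (3.26 to 833) against 1 count at EB day 4. Hoxb2 (2.02 ± 0.73, adjusted p = 0.022) was not called without the DMSO, BPA or BPF library of day 4 (adjusted p = 0.0562, 0.0623 and 0.0678), nor Hoxb3 (2.11 ± 0.70) without BPF of day 6 (adjusted p = 0.0504). Hoxb6 and Hoxb8, of the trunk, had 0 counts in all day 6 libraries.

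**Figure D3:**
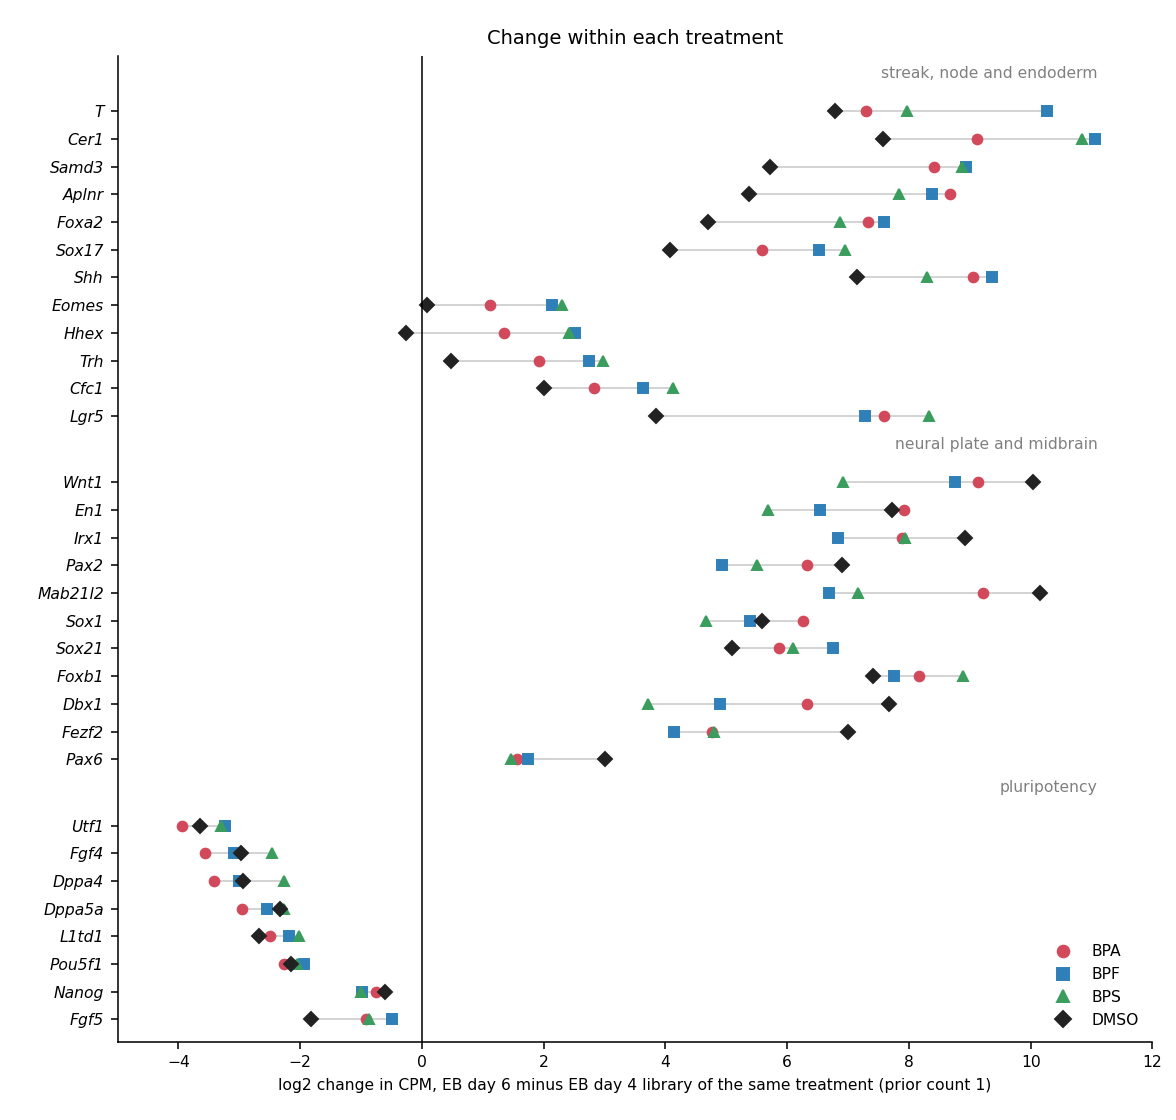
Log2 change in CPM from the EB day 4 library to the EB day 6 library of the same treatment, for 12 genes of streak, node and endoderm, 11 neural genes and 8 pluripotency genes (symbols mark treatments, grey lines their range). The 12 genes of the first group are a selection that leaves out Sp5, Nog and Cxcr4, and DMSO has the smallest change in each. Over the whole lists, DMSO was the lowest day 6 library for 8 of 15 streak, 8 of 15 node and 10 of 16 definitive endoderm members. Wnt1 reaches 10.03 in DMSO.

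Signalling genes rose widely, ligands and inhibitors alike. Of the Wnt ligands and receptors, 22 of 35 were called higher and 0 lower (median 1.80), and of the Wnt antagonists and targets 13 of 23 were higher and 1 lower (median 1.59). Lgr5, a receptor for R-spondins that amplify Wnt signals, had 3.78, 6.2, 6.33 and 0.56 FPKM at EB day 6 and 2 counts at EB day 4, a ratio of 401 (111 to 3320). Its ligand gene Rspo3 had 9.18, 11, 10.6 and 3.34 FPKM, against 0.08, 0.04, 0.04 and 0.12 FPKM (6.45 ± 0.56). Dkk1, which blocks Wnt co-receptors, had 39.5, 53.6, 55.5 and 20.4 FPKM, against 0.04, 0.14, 0.04 and 0.3 FPKM (7.87 ± 0.43, adjusted p = 2.1e-14). Frzb, which binds Wnt ligands outside the cell, had 35.3, 35.9, 37.5 and 33.5 FPKM, against 0.2, 0.17, 0.33 and 0.23 FPKM (7.04 ± 0.21, adjusted p = 9e-20). Of the 4 genes whose promoters are shown, Frzb and Sp5 were alike in all treatments of day 6, and T and Dkk1 were lowest in DMSO.

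The BMP and TGF-beta list had 19 of 31 higher and 0 lower (median 1.62). Bmp2, a ligand, had 11.7, 17, 15.7 and 8.15 FPKM at EB day 6, against 0.24, 0.27, 0.4 and 0.41 FPKM at EB day 4 (5.13 ± 0.40, adjusted p = 2.2e-11), and Bmp5 rose by 4.06 ± 0.35. Bmper, a modulator that binds BMPs, rose to 0.93, 1.79, 2.19 and 0.85 FPKM, against 2 counts at EB day 4, a ratio of 110 (30.2 to 915). Of the FGF list 8 of 25 were higher and 3 lower (median 0.15). Fgf8, of streak and isthmus, had 18.6, 21.9, 18.5 and 14.7 FPKM, against 0.93, 2.17, 1.6 and 1.75 FPKM (3.44 ± 0.25). Fgf4, of pluripotent cells, had 2.25, 2.79, 3.34 and 3.5 FPKM, against 25.4, 23.5, 18 and 26.9 FPKM (-3.01 ± 0.19). The Notch list had 9 of 22 higher and 1 lower, among them the ligand gene Dll1 (2.48 ± 0.23).

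Genes that make, bind and degrade retinoic acid were called higher, in cultures to which the labels add none. Of 18 tested members 11 were higher and 2 lower (median 1.29). Aldh1a2, the main embryonic enzyme of retinoic acid synthesis, had 3.22, 4.03, 2.81 and 4.82 FPKM at EB day 6, against 0.04, 0.04, 0.09 and 0 FPKM at EB day 4 (5.50 ± 0.83, adjusted p = 2.7e-06). Cyp26a1, which degrades retinoic acid, had 37.4, 70.2, 64.8 and 12.3 FPKM, against 1.96, 2.46, 2.72 and 2.37 FPKM (4.10 ± 0.38), with DMSO lowest at day 6. Crabp1, a cytosolic retinoic acid binding protein, had 56.9, 52, 59.1 and 53.8 FPKM, against 3.76, 3.54, 3.51 and 3.81 FPKM (3.84 ± 0.27).

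The main cadherin genes moved in opposite directions. Cdh2, the cadherin of mesenchyme and neural tube, had 43.2, 46, 50 and 32.5 FPKM at EB day 6, against 0.83, 0.85, 0.85 and 0.92 FPKM at EB day 4 (5.56 ± 0.14, adjusted p = 2.3e-21). Cdh1, the epithelial cadherin, had 62, 95.6, 87.4 and 46.9 FPKM, against 233, 232, 234 and 242 FPKM (-1.78 ± 0.26). Of the 22 tested genes of the cadherin switch and epithelial-mesenchymal transition list, 13 were higher and 7 lower. The intermediate filament gene Vim had 254, 285, 222 and 274 FPKM, against 19.2, 20.3, 22.6 and 25.7 FPKM (3.51 ± 0.09, adjusted p = 7.5e-21), and Zeb1, a repressor of epithelial genes, rose by 4.47 ± 0.15. The tight junction genes Cldn7 and Cldn4, in the surface ectoderm list (2 higher and 5 lower of 18), fell by 1.89 each on the log2 scale (SE 0.22 and 0.31).

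Pluripotency genes fell, though not all. Naive pluripotency genes were lower in 10 of 17 and higher in 1 (median -1.20), core pluripotency genes lower in 7 of 14 and higher in 0 (median -1.23), and formative and primed epiblast genes lower in 10 and higher in 3 of 20. Pou5f1, the POU factor required for pluripotency, had 103, 119, 105 and 89 FPKM at EB day 6, against 465, 452, 421 and 384 FPKM at EB day 4 (-2.09 ± 0.12, adjusted p = 6.9e-14). Utf1, a chromatin protein of pluripotent cells, had 32.1, 45.3, 41.5 and 37.6 FPKM, against 470, 422, 395 and 458 FPKM (-3.52 ± 0.15), and Dppa4 fell by 2.87 on the log2 scale (SE 0.13). Nanog had 48.9, 43.4, 43.3 and 59.3 FPKM, against 79.1, 84.5, 82.9 and 88.4 FPKM. It did not overlap between stages but missed the minimum change (-0.83 ± 0.13, adjusted p = 6.4e-06).

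The rising member of the naive list was Gbx2, also a gene of the anterior hindbrain, with 4.81, 5.67, 5.17 and 4.79 FPKM at EB day 6, against 0.27, 0.09, 0.32 and 0.18 FPKM at EB day 4 (4.27 ± 0.25, adjusted p = 9.2e-14). Fgf5, the ligand that marks primed epiblast, had 29.4, 38.6, 35.2 and 14.1 FPKM, against 52.6, 53.3, 61.8 and 48.7 FPKM, and was just short of the minimum change (adjusted p = 5.2e-05), with DMSO lowest on both days. Dnmt3b (-1.96 ± 0.13) and Dnmt3l (-2.15 ± 0.21), a de novo DNA methyltransferase and its cofactor, fell. Of the primordial germ cell list 6 of 13 were lower and 0 higher, among them the RNA helicase gene Ddx4 (-2.88 ± 0.25) and the RNA-binding protein gene Dazl (-2.57 ± 0.30).

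Cell cycle genes were not called. Of 26 cell cycle genes, 0 were called in either direction (median -0.12), and the largest change with an adjusted p under 0.05 was that of Mybl2 (-0.89 ± 0.08). With no minimum change, 11 of the 26 were lower and 3 higher, against 4001 and 4366 of 15632 genes tested. Without overlap, 11 lay below EB day 4 and 3 above it, against 25.0% and 26.5% of all genes tested. DMSO was the highest day 6 library for 21 of the 26, or 80.8%, against 31.7% of all genes tested. It was the lowest day 4 library for 12 of them, or 46.2%, against 26.4% of all genes tested. Ccnd2, a cyclin D of neural and mesodermal progenitors, had 48.7, 46.6, 51.8 and 35.6 FPKM at EB day 6, against 2.2, 2.36, 2.6 and 2.38 FPKM at EB day 4 (4.21 ± 0.18, adjusted p = 1e-16). Cdkn1c, an imprinted cell cycle inhibitor, rose by 2.21 ± 0.13.

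The largest gains in mean level included imprinted genes and a hormone gene. Mest, an imprinted gene of mesoderm, had 470, 362, 434 and 729 FPKM at EB day 6, against 80.8, 81.8, 89.2 and 90.9 FPKM at EB day 4 (2.49 ± 0.18). Nnat, an imprinted proteolipid gene of neural tissue, had 312, 331, 366 and 165 FPKM, against 31.7, 30.1, 36.3 and 27.7 FPKM (3.17 ± 0.16), with DMSO low where it was high for Mest. Trh, the thyrotropin-releasing hormone gene, had 275, 470, 510 and 89.8 FPKM, against 68.3, 69.3, 62.9 and 63.3 FPKM (2.24 ± 0.29). Of 31 imprinted genes 16 were higher and 3 lower (median 1.12), and 1 was lower without BPF of day 4. The largest losses included Ftl1, a ferritin subunit (1790, 2180, 1880 and 1970 FPKM at EB day 6, against 4370, 4280, 4310 and 4620 FPKM at EB day 4), and Dppa5a, of pluripotent cells (73.6, 89.4, 97.6 and 106 FPKM, against 539, 517, 453 and 523 FPKM).

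Markers of other cell types gave a mixed picture. The 7 fibroblast markers summed to 66.7, 51.5, 43.4 and 118 FPKM at EB day 6, against 28.2, 28.8, 31.7 and 27.4 FPKM at EB day 4. Col1a2, a fibrillar collagen chain, had 31.7, 25.7, 21.4 and 54.2 FPKM, against 1.48, 1.34, 1.74 and 2.08 FPKM (4.32 ± 0.73), and Postn, a matrix protein gene, 20.3, 11.2, 11.5 and 37.3 FPKM, against 0.46, 0.43, 0.39 and 0.68 FPKM (5.23 ± 0.76). Lum and Dcn, markers of mature fibroblasts, were not called (adjusted p = 0.067 and 0.81). At EB day 4 the sum was mostly Thy1, a surface glycoprotein gene at 22.7 to 27.3 FPKM, which stood at 1.91 to 2.86 FPKM at EB day 6. The sum, Col1a2 and Postn were highest in DMSO at day 6, as Wnt1, Sox1 and Pax6 were, and the part of these cells in the other results was not tested. Of 4 blood and immune markers, Ptprc was at 0 in all 8 libraries, and their sum of 6.06 to 8.16 FPKM at EB day 6, against 28.2 to 32.3 FPKM at EB day 4, was almost all Cd68 (-2.22 ± 0.23).

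EB day 6 was next set against the mean of EB days 4 and 9, to find genes above or below the level between these days. Of 15632 genes 537 were higher at day 6 than that mean (3.44%) and 559 lower (3.58%), together 7.01%, by the same test and threshold. The comparison shares its day 6 and day 4 libraries with the one above, so the levels are given stage by stage. Cer1 averaged 71.6 ± 46.4 FPKM at EB day 6, against 0.0175 ± 0.0287 at EB day 4 and 0.835 ± 0.69 at EB day 9 (SD, n = 4 libraries each; edgeR adjusted p = 1.2e-17). Pax2 averaged 6.2 ± 3.56 FPKM, against 0.0625 ± 0.0287 and 0.335 ± 0.128 (5.04 ± 0.26). Frzb averaged 35.5 ± 1.66 FPKM, against 0.233 ± 0.0695 and 13.2 ± 1.51 (4.27 ± 0.14). T (4.58 ± 0.25), the apelin receptor gene Aplnr (4.59 ± 0.29) and Samd3 were the others of the 6 largest. Where day 4 held 3 counts or fewer, as for Cer1 and Samd3, the fitted size rests on them and is not given. Shh and Wnt1 were also called, since the mean is taken on the log2 scale, with 16.9 and 25 FPKM at EB day 6, against 54.5 ± 18.1 and 45.2 ± 16.6 FPKM at EB day 9.

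Genes that dipped at day 6 were named only with a minimum level on both neighbouring days, those above the mean with one at day 6. The sizes of the 2 sets are therefore not compared. Kbtbd11, of a BTB and kelch domain protein, averaged 0.9 ± 0.206 FPKM at EB day 6, against 8.69 ± 1.4 at EB day 4 and 5.58 ± 0.732 at EB day 9 (-2.92 ± 0.13, adjusted p = 2.6e-15). The adaptor gene Sh2d3c averaged 2.02 ± 0.242 FPKM, against 6.23 ± 0.904 and 7.38 ± 0.989 (-1.74 ± 0.13). Sord, sorbitol dehydrogenase, averaged 7.08 ± 1.01 FPKM, against 22.2 ± 2.15 and 20.6 ± 5.22 (-1.58 ± 0.11). Of the streak list 12 of 15 members were called above the mean of the neighbouring days, against 3.44% of all genes tested. The forebrain list had 12 of 20 above it, the midbrain list 13 of 23 and the hindbrain list 14 of 23. A gene near 0 at day 4 can be called above this mean and still rise to day 9, as Shh and Wnt1 did. These are therefore not counts of genes that peaked at day 6. Of the proneural list 0 were above it and 5 of 21 below (median -0.77).

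**Figure D4:**
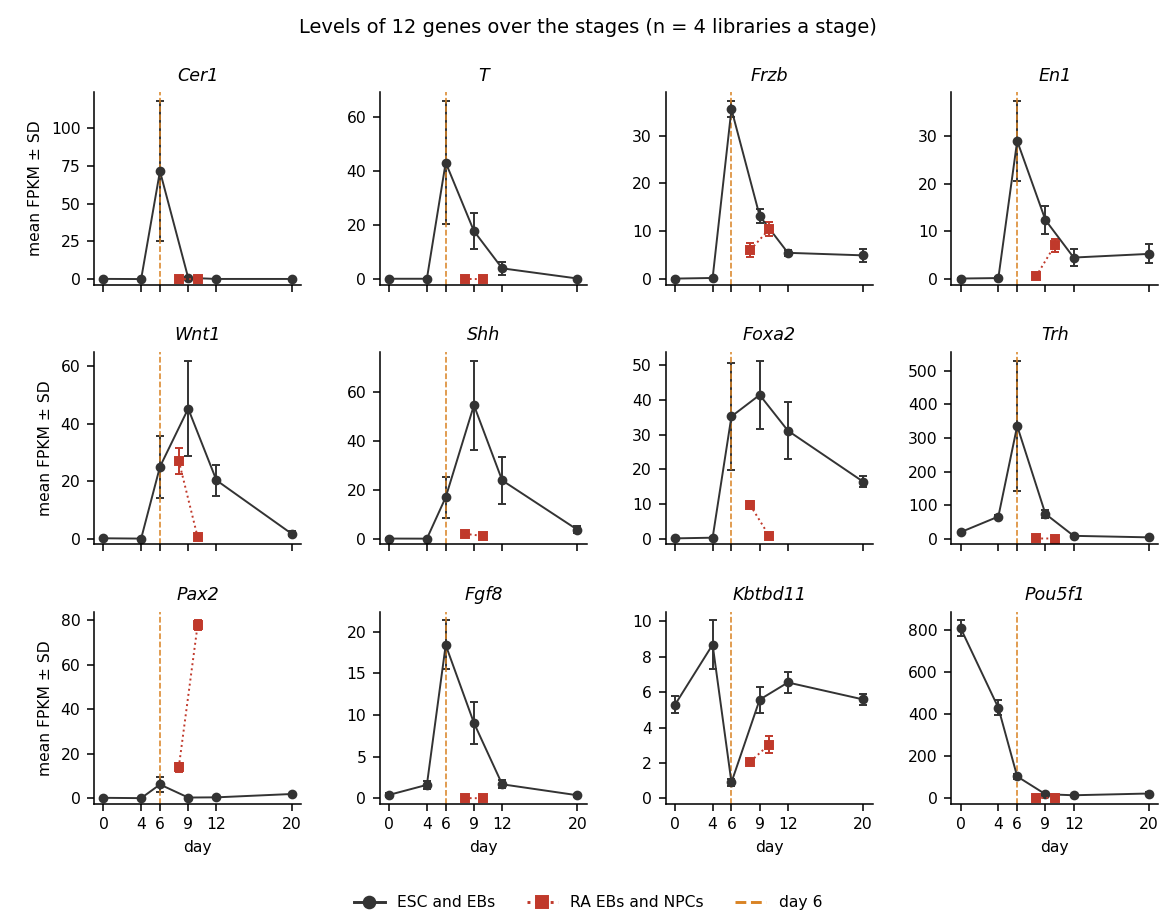
Mean FPKM ± SD (n = 4 libraries a stage) by day for 12 genes: black circles are embryonic stem cells and EBs, red squares RA EBs and neural progenitor cultures, and the dashed line marks day 6. Cer1, T, Frzb, En1, Trh and Fgf8 peak at day 6 among the EB days, Wnt1, Shh and Foxa2 are higher at day 9, and Kbtbd11 dips at day 6.

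Against RA EBs, 1715 genes were higher at EB day 6 (11.0%) and 1852 lower (11.8%), together 22.8% of 15632. The groups differ by 2 days of culture as well as by retinoic acid, and these cannot be told apart. Streak and pluripotency genes were mostly higher at EB day 6, with 10 higher and 2 lower of 15 streak genes, 13 and 1 of 17 naive genes, and 11 and 0 of 14 core pluripotency genes (median 3.01). Trh averaged 336 ± 194 FPKM at EB day 6, against 0.618 ± 0.268 in RA EBs (8.94 ± 0.47, adjusted p = 4.3e-15). T averaged 43.2 ± 22.7 FPKM, against 0.0425 ± 0.0613 (8.86 ± 0.41). Fgf8 averaged 18.4 ± 2.94 FPKM, against 0.0225 ± 0.045 and 1 count in RA EBs, a ratio of 965 (173 to 38200). Pou5f1 averaged 104 ± 12.4 FPKM, against 1.58 ± 0.639 (6.16 ± 0.18).

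The lower genes were led by the Hox clusters, 25 of 28 of which were lower at EB day 6 and 0 higher (median -7.83). Hoxb8 had 0 counts at EB day 6, against 24979 counts and 218 ± 9.8 FPKM in RA EBs, and was at least 8070-fold lower (floor of 3 counts over the group). Hoxb9 averaged 0.0325 ± 0.0472 FPKM, against 97.6 ± 23.8 (-10.42 ± 0.29, adjusted p = 9.6e-21). Proneural genes were lower in 20 of 21 members and higher in 0 (median -4.36), and Pax6 averaged 2.04 ± 1.37 FPKM, against 50 ± 1.87 (-4.65 ± 0.30). Regional neural genes differed by their place along the axis. Of 20 forebrain genes 12 were higher at EB day 6 and 2 lower, and of 23 midbrain and isthmus genes 10 were higher and 7 lower. Of 23 hindbrain and spinal genes 4 were higher and 15 lower. En1 was among those higher at EB day 6 (29 ± 8.32 FPKM, against 0.555 ± 0.282), and Wnt1 did not differ by the test (25 ± 10.7 FPKM, against 27.1 ± 4.48, adjusted p = 0.66). Cyp26a1 averaged 46.2 ± 26.8 FPKM at EB day 6, against 102 ± 13.4 in RA EBs (-1.26 ± 0.30).

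The last comparison asked whether the change between the days was the same in the bisphenol cultures as in DMSO. The change over the 3 bisphenols minus that in DMSO was called, at an adjusted p under 0.05, for 75 of 15632 genes (0.480%), of which 66 were higher in bisphenols (0.422%) and 9 lower (0.0576%). The test had 1 DMSO library a stage and took its spread from the other libraries, so its p-values hold no spread between DMSO cultures. Of the 66 higher genes, DMSO was the lowest library at EB day 6 for 62 and the highest at EB day 4 for 52, both for 48. Over all genes tested the shares were 26.8% and 28.9%. The call itself picks genes with DMSO low at day 6 or high at day 4, so these counts only describe which day took part. DMSO lay farther from the bisphenol libraries at EB day 4 for 24 of the 66. Dync1h1, a dynein motor heavy chain gene named after its values were seen, had 21.2, 20.5, 19.9 and 20.3 FPKM at EB day 6, against 22.1, 24.4, 23.3 and 45.7 FPKM at EB day 4 (0.98 ± 0.21, adjusted p = 0.03), with the DMSO library of day 4 apart from the other 7. Its call was lost without BPA or BPS of day 4 or BPF or BPS of day 6 (adjusted p = 0.0542 to 0.0649), and with the length-trend offsets described below (0.42, adjusted p = 0.363). Ptch1 was among the higher genes, as its values above show (difference 1.69 ± 0.16, adjusted p = 2e-06). Fzd5, a Wnt receptor gene, had 9.03, 18.8, 17.3 and 3.42 FPKM at EB day 6, against 5.47, 4.29, 4.46 and 5.74 FPKM at EB day 4 (2.40 ± 0.35, adjusted p = 0.0011). It rose in each bisphenol and was lower at day 6 in DMSO. Amot, an inhibitor of YAP at junctions, had 30.2, 49.5, 55.8 and 16.3 FPKM, against 3.68, 3.54, 3.94 and 5.66 FPKM (2.06 ± 0.33, adjusted p = 0.0033). Trh differed by 2.13 ± 0.33 (adjusted p = 0.0026), Rabgap1l, of a GTPase-activating protein, by 1.61 ± 0.22 and Cobl, an actin nucleator, by 1.37 ± 0.20.

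Of the genes lower in bisphenols, Sez6, a neuronal membrane protein gene, had 2.12, 1.97, 2.09 and 5.52 FPKM at EB day 6, against 3.63, 3.77, 4.52 and 3.8 FPKM at EB day 4 (-1.49 ± 0.23, adjusted p = 0.0022). Cxcl12, the ligand of Cxcr4, had 13.5, 8.19, 8.09 and 20.3 FPKM, against 19.8, 21.7, 25.6 and 17.4 FPKM (-1.32 ± 0.29, adjusted p = 0.031). Its call was lost without BPS of day 4 or without BPF or BPS of day 6 (adjusted p = 0.0701 to 0.077). Genes near 0 at day 4 had wide errors here: Foxa2 differed by 2.52 ± 0.81 and T by 1.35 ± 4.05 (adjusted p = 0.2 and 0.96).

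Transcript length moved with this comparison. The 66 higher genes had a median length of 6097 bases, against 2832 over all genes tested, and 33 of them lay in the longest 10% (6046 bases or more). In that class the median change from day 4 was 0.22, 0.07, 0.09 and -0.08, and in the shortest 10% it was -0.15, -0.09, -0.13 and -0.01. With a length trend removed within each library, an alternative chosen after these values were seen, 36 genes were called, 29 higher and 7 lower, and 31 of them were shared with the 75. Ptch1 (4305 bases), Fzd5, Amot, Trh, Rabgap1l, Cobl and Sez6 kept their calls, while Cxcl12 (adjusted p = 0.0545), Psmg1 (0.0556) and Ccdc163 (0.0893) did not. The part of length, or of the library itself, was not tested.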

How the data were processed

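RNA-seq of 32 libraries, 1 for each of 8 stages and 4 treatments, was used, and the 8 libraries of EB day 6 and EB day 4 were the subject. RNA was taken with Trizol and RNeasy Plus, per the labels' protocols. The authors deposited, for each library, expected counts per gene (estimated reads) and FPKM, per the file headers. Tools listed in the submitters' processing notes were RSEM, HISAT and Bowtie2, with build mm10; versions and settings are not given in the sources used here. Genes under 0.01 FPKM are not listed in a library and were set to 0. Totals were 9574833 to 11070149 expected counts per library, which limits precision for genes of few counts. Of 20612 genes listed, 20560 were matched to RefSeq of GRCm38.p6, 20551 by gene identifier and 9 by transcript; the other 52 were left out. Promoters came from the same RefSeq tables, and proteins were not used here.

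Expected counts were rounded and tested with edgeR 4.0.16 in R 4.3.3 (quasi-likelihood test, TMM factors 0.923 to 1.143, prior count 1). Genes needed 1 CPM in at least 4 of the 32 libraries, which left 15632. Each model was fitted to all 32 libraries. It had stage and treatment (21 residual degrees of freedom) or, for the comparison of changes, stage by class, bisphenol or DMSO (16). That comparison was called on the adjusted p alone. The adjusted p is Benjamini-Hochberg's over all genes tested. SEs were derived from the log2 change and the F statistic. Alternatives were other normalization, filters, DESeq2 1.42.0, limma 3.58.1 on log2(FPKM + 1) and log2(FPKM + 0.1), left-out libraries and a gene length trend.

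On simulated data with 200 changed genes, EB day 6 against EB day 4 called 44.8% of genes changed by a log2 of 1. At 2 and 3 it called 83.6% and 95.3%, with 2 unchanged genes called of 15485 tested. At 1, 79.1% had an adjusted p under 0.05 in edgeR's test, but a call also needed an estimate of at least 1. The comparison of changes, which had no minimum change, called 54.5%, 71.6% and 84.8%, with 5 unchanged genes called of 15521. Counts were drawn gene by gene, with no shift of a whole library and no length trend. These rates therefore do not cover a DMSO library that stands apart.

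The stages, gene lists and tests were chosen with earlier results of these data known. Genes named were the 12 highest and 12 lowest changes among called genes with at least 10 FPKM, the 6 largest gains and losses in level, up to 4 called members of each list, cell type markers, and the 6 leading genes in each direction of the other comparisons. Cdh1, Foxj1 and genes described beyond these were chosen after their values were seen.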

Additional observations from a re-analysis of the deposited data

Results flagged for a closer look

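Of 71 genes given library by library, 141 groups of 4 libraries could be checked for a library far from the other 3 (a gap over the range above Dixon's 95% critical value, which chance gives in about 1 group in 20). Sez6 was named for its difference from DMSO and Dync1h1 after its values were seen, and genes of the same library are not independent. The number of groups found is therefore no test against the share given by chance. In 19 groups 1 library stood apart. All 6 such groups at EB day 6 were the DMSO library, highest for Col4a2 (40.3 FPKM), Pax2 (11.5), Sez6 (5.52), Fezf2 (5.06), Pax6 (4.09) and Emx2 (2.74). The other 13 groups were at EB day 4, and 9 of them lay at 0.12 FPKM or less. Dync1h1 was highest in DMSO at 45.7 FPKM, Irf1 was lowest in BPS at 48.4 FPKM, Nog was highest in DMSO at 0.92 FPKM and Six3 lowest in BPA at 0.5 FPKM. Wnt1 (0.12), Isl1 (0.08), Pax3 (0.06) and Shh (0.04) were highest in BPS, Cer1 (0.06) and Emx2 (0.04) in BPA, Foxc2 (0.11) in DMSO and Wnt3a (0.03) in BPF. Sox17 was lowest in BPS at 0.03 FPKM.

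A difference between bisphenols and DMSO in the change between the days was called for 75 genes by edgeR's interaction test. On the log2 scale, bisphenols minus DMSO, it was 2.40 for Fzd5, 2.13 for Trh, 2.06 for Amot, 1.69 for Ptch1, 1.61 for Rabgap1l and 1.37 for Cobl. It was -1.72 for Ccdc163, -1.49 for Sez6, -1.37 for Rasl10b, -1.32 for Cxcl12, -0.83 for Upf3b and -0.74 for Psmg1. DMSO was 1 library at each day, so treatment and library cannot be told apart, and the count ran over the alternatives from 25 to 241. Besides Cxcl12, calls were lost without single bisphenol libraries for 4 of these genes. Ccdc163 lost its call without BPA, BPF or BPS of day 4 or BPF or BPS of day 6 (adjusted p = 0.0537 to 0.109), and also with DESeq2 (0.198), no filter (0.0617) and the 2 stages alone (0.078). Psmg1 lost it without BPA of day 4 (0.0649) or BPF of day 6 (0.0563). Upf3b (0.0534 and 0.0547) and Rasl10b (0.0546 and 0.0547) lost theirs without BPA of day 4 or BPS of day 6.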

How the results depend on the processing

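Calls at EB day 6 against EB day 4 numbered 2977, and 2337 to 3192 under another normalization, other filters, DESeq2, limma on log2(FPKM + 0.1), the 2 stages alone or length-trend offsets. They numbered 2863 to 2939 without single libraries. Limma on log2(FPKM + 1) gave 1266, against 282 of 1096 for day 6 against days 4 and 9 and 1757 of 3567 against RA EBs; the cause was not tested. With no minimum change 8367 genes were called, and 1701 when testing against a log2 change of 1. The 75 calls between bisphenols and DMSO became 134 with DESeq2, 241 with the 2 stages alone, 36 with length-trend offsets and 25 to 191 without single bisphenol libraries (191 without BPA of day 6, 32 without BPF and 25 without BPS of day 6, 30 without BPA and 49 without BPS of day 4). This comparison cannot be run without a DMSO library. No direction reversed under the alternatives run, and calls of named genes lost without single libraries are given beside them above. Limma on log2(FPKM + 1) also lowered the count of members called higher in several other lists. It became 13 of 23 for hindbrain, 7 of 22 for early neural plate, 8 of 23 for crest and 0 of 28 for Hox genes. For the streak list it became 11 of 15, for Wnt ligands and receptors 13 of 35 and for Wnt antagonists and targets 9 of 23. For BMP and TGF-beta it became 14 of 31 and for retinoic acid 7 of 18.

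Treatments number the libraries. Deviations from the stage mean were correlated between same-treatment libraries of the 2 days at -0.073, -0.025, 0.211 and 0.023 for BPA, BPF, BPS and DMSO (9886 genes). The highest correlation with a day 4 library of another treatment was 0.168, 0.11, 0.029 and 0.061. Only the BPS library of day 6 deviated most like its own treatment, and weakly. With no replicate block (no treatment term) 2967 genes were called. At these depths a gene of few counts at EB day 4 has a fold known only within the wide intervals given.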

Other observations

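Genes of cholesterol synthesis moved little but together. Of 23 tested, 5 were called higher at EB day 6 and 0 lower (median 0.69), while 21 stood above EB day 4 without overlap, against 26.5% of all genes. Hmgcs1, which makes the precursor of mevalonate, had 175, 148, 161 and 147 FPKM at EB day 6, against 68.4, 69.1, 69.4 and 70.6 FPKM at EB day 4 (BPA, BPF, BPS and DMSO; edgeR log2 change 1.14 ± 0.10, adjusted p = 4.3e-10). Msmo1, a sterol demethylation enzyme, changed by 1.22 ± 0.08. Interferon-type genes were lower in 5 of 24 (8 without BPF of day 6) and higher in 0. Irf1, an interferon-regulated factor, had 18.3, 20.8, 18.2 and 13.5 FPKM, against 57.6, 57.2, 48.4 and 58.3 FPKM (-1.70 ± 0.13), and DMSO was the lowest day 6 library for 16 of the 24.

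Other imprinted genes rose beside Mest and Nnat. Igf2, a fetal growth factor gene, had 185, 208, 215 and 167 FPKM at EB day 6, against 15.1, 15.6, 14.3 and 15.8 FPKM at EB day 4 (3.56 ± 0.36, adjusted p = 3.1e-09). Plagl1, a zinc finger factor, had 15.8, 12.6, 14.6 and 12.2 FPKM, against 0.43, 0.46, 0.52 and 0.5 FPKM (4.76 ± 0.20), and the paternally expressed Dlk1 rose by 4.61 ± 0.45.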
